A study of Mus musculus with 24 samples.

Results

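Small RNA from the mammary gland was sequenced in 24 C57BL/6 females, and 4 of the 1009 listed miRNAs are described here: mmu-miR-193a-3p, mmu-miR-193a-5p, mmu-miR-193b-3p and mmu-miR-365-3p. They were chosen by name, as products of the miR-193b and miR-365 cluster linked to fat cells and of the related miR-193a locus. The mice formed 4 groups of 6 by stage, namely adults of 10 weeks (W10), mice on day 18 of pregnancy (P18), mice on day 7 of lactation (Lac7) and mice on day 3 of involution (Inv3), the regression of the gland after weaning. The labels name no transgene or treatment, W10 served as the non-pregnant reference, and the age of the mice at the other stages is not given in the sources used here. The abdominal and inguinal glands of each mouse were ground whole, so fat, epithelium, vessels and any lymph node stayed in 1 extract. In such bulk samples fewer cells of a type and less of a miRNA per cell cannot be told apart. The design text of the series gives day 3 for lactation, day 7 for involution and only the inguinal glands, and the days of the sample labels are used here.

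miRNAs are cut as 2 arms, 5p and 3p, from a hairpin precursor, and one arm usually outnumbers the other. A loaded arm pairs with messenger RNAs mainly through its seed (bases 2 to 8) and lowers their translation and stability. The miR-193b and miR-365 cluster has been described as promoting brown fat cell differentiation, and its locus as a target of STAT5, the factor through which prolactin acts on the mammary epithelium. The adult mouse gland is a thin ductal tree in a fat pad, and pregnancy and lactation fill that pad with milk-producing alveoli. The table holds miRNAs only and none of the listed miRNAs defines fat cells alone, so the link of the members to fat cells was not checked in these data.

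The mature sequences show which members could act through the same seed, set in capitals, and are taken from RefSeq (GRCm38.p6), where all 7 names looked up, the 4 members and 3 other arms of their precursors, were found.
mmu-miR-193a-3p: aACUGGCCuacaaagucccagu
mmu-miR-193b-3p: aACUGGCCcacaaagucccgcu
mmu-miR-193a-5p: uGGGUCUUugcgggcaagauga
mmu-miR-193b-5p: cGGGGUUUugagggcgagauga
mmu-miR-365-3p: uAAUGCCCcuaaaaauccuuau
The 3p arms of miR-193a and miR-193b shared their seed and 19 of 22 bases. They differed, counted from the 5′ end with miR-193a-3p first, by U9C, A20G and G21C. No other listed miRNA had that seed among the 854 with a RefSeq sequence, and none shared the seed of miR-193a-5p or miR-365-3p. The 5p arms of miR-193a and miR-193b differed inside the seed, by U5G and C6U among others, and had different seeds.

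Each miR-193 precursor lies upstream of a miR-365 precursor on the plus strand (GRCm38). Mir193a (chr11:79711969-79712034) is 14365 bases before Mir365-2 (chr11:79726400-79726511), and both are intergenic, with the noncoding gene Gm11205 and the protein-coding gene Rab11fip4 as nearest neighbours upstream. Mir193b (chr16:13449523-13449601) is 4238 bases before Mir365-1 (chr16:13453840-13453926), and both lie within the antisense gene Gm15738 of the opposite strand, outside its exons. Mature miR-365-3p is the same 22 bases from either locus, so its reads cannot be assigned to one. The hairpin of Mir193a is shown with both arms in capitals, since nearly all of its reads came from the first arm.
Mir193a: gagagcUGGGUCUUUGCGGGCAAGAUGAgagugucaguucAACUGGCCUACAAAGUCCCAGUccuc
Mir193b: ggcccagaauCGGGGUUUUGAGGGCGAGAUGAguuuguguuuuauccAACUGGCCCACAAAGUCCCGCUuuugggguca

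The arms were read very unequally. Of 1626 reads from Mir193a in the 24 libraries, 1613 (99.2%) were miR-193a-5p and 13 were miR-193a-3p. From the miR-365 precursors 5895 of 5904 reads (99.8%) were miR-365-3p, and 4 were miR-365-1-5p and 5 miR-365-2-5p, the only arms that differ between the 2 loci. Mir193b gave 44 reads of its 3p arm and 89 of its 5p arm. By stage the 3p arm made up 27 of 55 reads (W10), 5 of 19 (P18), 9 of 42 (Lac7) and 3 of 17 (Inv3), which is given as a description since mice and not reads are the replicates.

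Levels are given as RPM, reads scaled to a total of 1000000 on the listed miRNAs. The libraries held 660346 to 1165321 reads, so that 1 read stood for 0.858 to 1.51 RPM, and a count of 0 allows a level of up to 3 reads, 2.57 to 4.54 RPM by library, counting error only. Lac7 libraries were the shallowest as a group, with 660346 to 751890 reads. Differences were tested with limma on log2(RPM + 1), which understates the change of low miRNAs, over the 544 miRNAs whose mean reached 1 RPM at some stage, and called at a Benjamini-Hochberg adjusted p under 0.05.

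miR-365-3p was the most abundant member at each stage and was highest in adult glands. It ranged from 419 to 864 RPM at W10 with a median of 522 RPM (602 ± 182, mean ± SD, n = 6). At P18 it ranged from 125 to 203 RPM with a median of 152 RPM (161 ± 37.5, n = 6). At Lac7 it ranged from 63.8 to 117 RPM with a median of 97.0 RPM (91.2 ± 19.1, n = 6). Its values thus did not overlap between W10 and P18, nor between P18 and Lac7, and were lower at each step. How many of the 544 tested miRNAs separated as fully was not counted. Of these 544, 41.5% were called between W10 and P18 and 45.2% between P18 and Lac7. At Inv3 miR-365-3p ranged from 93.2 to 240 RPM with a median of 133 RPM (148 ± 52.1, n = 6), and the range overlapped those of P18 and Lac7. Its rank among all 1009 listed miRNAs was 82 in adults, 129 in late pregnancy, 144 in lactation and 126 in involution.

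**Figure D1:**
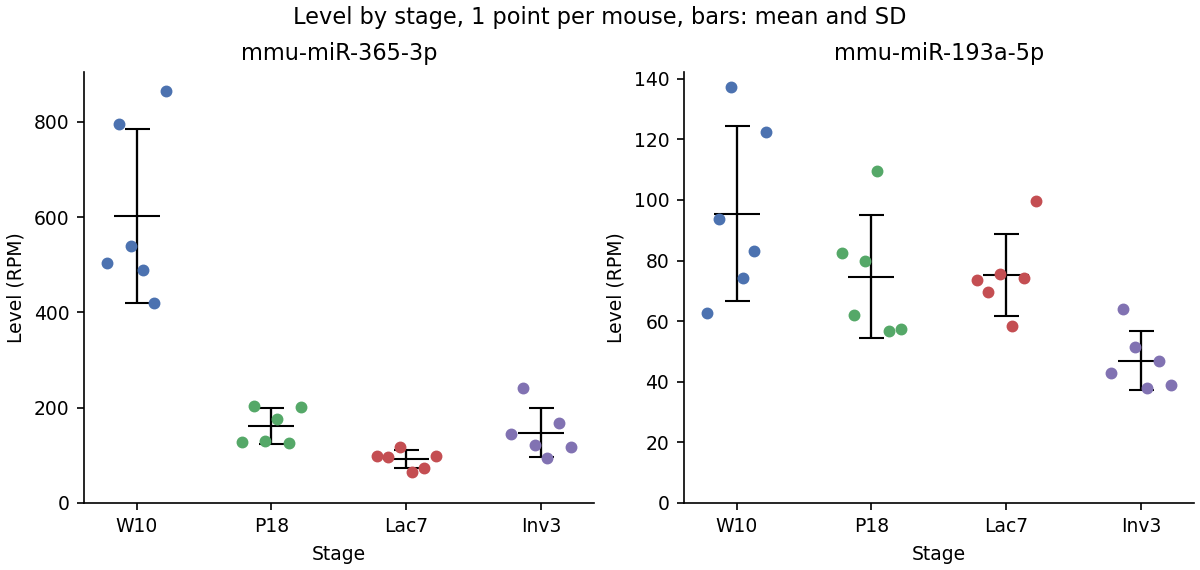
Levels of miR-365-3p (left) and miR-193a-5p (right) in RPM on linear axes from 0, by stage, with 1 point per mouse and the mean and SD of 6 mice in black. All W10 points of miR-365-3p, from 419 RPM up, lie above every other stage, while miR-193a-5p has its lowest stage at Inv3, with a mean of 46.9 RPM.

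miR-365-3p was 3.75-fold lower at P18 than at W10 (log2 fold change -1.88, SE 0.22, adjusted p = 8.4e-08). Its fitted change was the 26th lowest of 544. A further fall of 0.80 on the log2 scale followed from P18 to Lac7 (SE 0.22, adjusted p = 0.0031). From Lac7 to Inv3 miR-365-3p rose by 0.65 on the log2 scale (SE 0.22, adjusted p = 0.015), and the Inv3 mouse was the higher one in 32 of the 36 pairs of an Inv3 and a Lac7 mouse. The call at Inv3 rested on 1 mouse, since without Inv3 mouse 2, the highest at 240 RPM, the change was 0.49 (adjusted p = 0.056). With libraries scaled by size factors instead of totals, neither of the later changes passed in limma. Lac7 then differed from P18 by -0.50 (adjusted p = 0.051) and Inv3 from Lac7 by 0.47 (adjusted p = 0.063). On the recovered reads both were called by edgeR (-0.65 and 0.65, adjusted p = 0.016 for both) and by DESeq2 (-0.51, adjusted p = 0.049, and 0.53, adjusted p = 0.041).

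Against W10, miR-365-3p was 6.60-fold lower at Lac7 (log2 fold change -2.69, SE 0.22, adjusted p = 2.2e-11) and 4.08-fold lower at Inv3 (-2.04, SE 0.22, adjusted p = 5.3e-08). Neither group overlapped W10, in comparisons where 66.7% (Lac7) and 39.2% (Inv3) of all tested miRNAs were called. After weaning miR-365-3p stood near its level of late pregnancy. The difference between Inv3 and P18 was -0.16 (SE 0.22, adjusted p = 0.65), which does not show that the 2 stages are alike. The order of levels was therefore W10, then P18 and Inv3 without a difference beyond their spread, then Lac7.

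miRNAs of other cell types moved between the same stages. The summed level of 6 miRNAs of fibroblasts and smooth muscle, such as miR-199a-3p, miR-214-3p and miR-145a-5p, spanned 77754 to 108701 RPM in the W10 mice, 50940 to 63006 in the P18 mice, 18562 to 25330 in the Lac7 mice and 44367 to 70141 in the Inv3 mice. Most reads of this list were miR-199a-3p, with 1180778 over all libraries against 72092 for miR-199a-5p, the next. None of these 6 rose and 4 fell from W10 to P18, 5 of 6 fell from P18 to Lac7, and all 6 rose from Lac7 to Inv3. With size factors 1 of the 6 listed miRNAs rose and 4 fell in the first step and 4 fell in the second. The list leaves out miR-143-3p, a far more abundant miRNA that is counted in the list of fat cell regulators. miR-143-3p was lowest at W10 and rose from W10 to P18 by 0.66 on the log2 scale (limma, adjusted p = 5.9e-07). The stages of the summed level stood in the order of miR-365-3p, but the single miRNAs did not all follow it. Of the 6, 1 was called higher and 4 lower at Inv3 against W10. Against P18, 2 were called higher at Inv3 and 0 lower. The sum of 3 leukocyte miRNAs, miR-150-5p of lymphocytes and both arms of miR-142a, which leukocytes in general express and which held most of the reads, spanned 24208 to 46693 RPM in W10 mice, 5780 to 22151 in P18 mice, 3258 to 11302 in Lac7 mice and 11390 to 21809 in Inv3 mice. The sum of 9 epithelial miRNAs, among them the miR-200 family, went the other way, with 15364 to 21650 RPM in W10 mice, 50430 to 65255 in P18 mice, 116321 to 135801 in Lac7 mice and 24727 to 80531 in Inv3 mice. miR-200a-3p held most of its reads. Of the 9, 7 rose and 0 fell from W10 to P18, 6 rose and 1 fell from P18 to Lac7, and 1 rose and 8 fell from Lac7 to Inv3. The part of these cell types in the levels of miR-365-3p was not tested.

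Skeletal muscle miRNAs also differed between mice. The sum of 5 skeletal muscle miRNAs, led by miR-1a-3p, was 298 to 3099 RPM in W10 mice, 26.9 to 551 in P18 mice, 19.95 to 1725 in Lac7 mice and 28.7 to 194 in Inv3 mice. Of these 5, miR-208b-3p had 2 reads in all. The list leaves out miR-133a-3p, another muscle miRNA that is counted in the list of fat cell regulators, at 9618 ± 6759 RPM in W10 mice, 775 ± 813 in P18 mice, 1445 ± 1246 in Lac7 mice and 310 ± 216 in Inv3 mice (SD, n = 6). The part of muscle in the levels of the members was not tested. Sums of 2 endothelial miRNAs differed less, from 12532 to 19549 RPM over all 24 libraries. The sum of 2 myeloid miRNAs was 1193 to 2410 RPM in W10 mice, 995 to 1326 in P18 mice, 715 to 903 in Lac7 mice and 1638 to 2311 in Inv3 mice. Of 5 red blood cell miRNAs 4 were listed, with sums of 400 to 2014 RPM.

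Set against the fibroblast and smooth muscle sum of the same library, miR-365-3p had its highest mean at W10 and its lowest at Inv3. This ratio, chosen after the values were seen, does not depend on how libraries are scaled, and its denominator is mostly miR-199a-3p. It was 6.83 ± 2.64 RPM of miR-365-3p per 1000 RPM of the list in W10 mice, 2.93 ± 0.918 in P18 mice, 4.06 ± 0.868 in Lac7 mice and 2.66 ± 0.661 in Inv3 mice (SD, n = 6). On the log2 scale P18 was lower than W10 by a difference of -1.19 (exact two-sided permutation test, p = 0.0022, the smallest that 924 splits allow, adjusted p = 0.0037 over 12 tests), with no overlap. Lac7 differed from P18 by 0.51 (exact permutation p = 0.061, adjusted p = 0.073). That difference passed with a pseudocount of 10 RPM (exact permutation test, adjusted p = 0.040). It also passed without P18 mouse 2, P18 mouse 6 or Lac7 mouse 5 (adjusted p = 0.049 to 0.0498 over the comparisons that involve that mouse). Inv3 differed from Lac7 by -0.62 (exact permutation p = 0.0087, adjusted p = 0.013). In both steps the sign was opposite to the change of the level itself. W10 and Lac7 overlapped, with Lac7 lower by a difference of -0.68 (exact permutation p = 0.019, adjusted p = 0.026). That difference was not called with a pseudocount of 10 RPM (exact permutation test, adjusted p = 0.055) or without Lac7 mouse 4 (adjusted p = 0.052).

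The 4 members did not move as one. Beside miR-365-3p, miR-193b-3p was the only member called between W10 and P18, so 2 of 4 fell. Of the 544 tested miRNAs 41.5% were called there, 160 lower and 66 higher. Between P18 and Lac7 only miR-365-3p was called, against 45.2% of all tested, 171 lower and 75 higher. Between Lac7 and Inv3 miR-365-3p was called higher and miR-193a-5p and miR-193b-3p lower. Of all tested 46.9% were called there, 152 higher and 103 lower. Against W10, 1 member was called at Lac7 (66.7% of all tested) and 3 at Inv3 (39.2%), all lower. Most calls over all tested miRNAs were lower as well, 264 against 99 higher at Lac7 and 170 against 43 higher at Inv3. Between P18 and Inv3 only miR-193a-5p was called, lower, against 28.5% of all tested, 96 lower and 59 higher. Over the 544 the log2 fold changes had a median of -0.32 for P18 against W10, -0.34 for Lac7 against P18 and 0.28 for Inv3 against Lac7.

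miR-193a-5p was lowest in involution, and no difference between the other stages passed the test. It ranged from 62.6 to 137 RPM at W10 with a median of 88.3 RPM (95.5 ± 28.8, SD, n = 6). At P18 it ranged from 56.6 to 110 RPM with a median of 71.0 RPM (74.7 ± 20.4, n = 6), and at Lac7 from 58.5 to 99.7 RPM with a median of 73.9 RPM (75.2 ± 13.5, n = 6). These 3 stages overlapped widely. At Inv3 it ranged from 37.9 to 63.9 RPM with a median of 44.8 RPM (46.9 ± 9.72, n = 6), and only mouse 2 reached into the range of another stage.

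From W10 to P18 miR-193a-5p differed by -0.34 on the log2 scale (SE 0.20, adjusted p = 0.19) and from P18 to Lac7 by 0.03 (SE 0.20, adjusted p = 0.92). From Lac7 to Inv3 it fell by 0.67 (SE 0.20, adjusted p = 0.0079), and in 1 of 36 pairs of mice was the Inv3 mouse the higher one. Inv3 was also below W10 by 2.03-fold (log2 fold change -0.98, SE 0.20, adjusted p = 0.00037). The difference of Inv3 from P18, -0.64 (SE 0.20, adjusted p = 0.018), was lost without P18 mouse 4 (-0.52, adjusted p = 0.063), with size factors (-0.52, adjusted p = 0.063) and with edgeR (-0.56, adjusted p = 0.053). Between Lac7 and W10 the difference was -0.31 (SE 0.20, adjusted p = 0.19), and it turned to 0.24 with size factors.

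**Figure D2:**
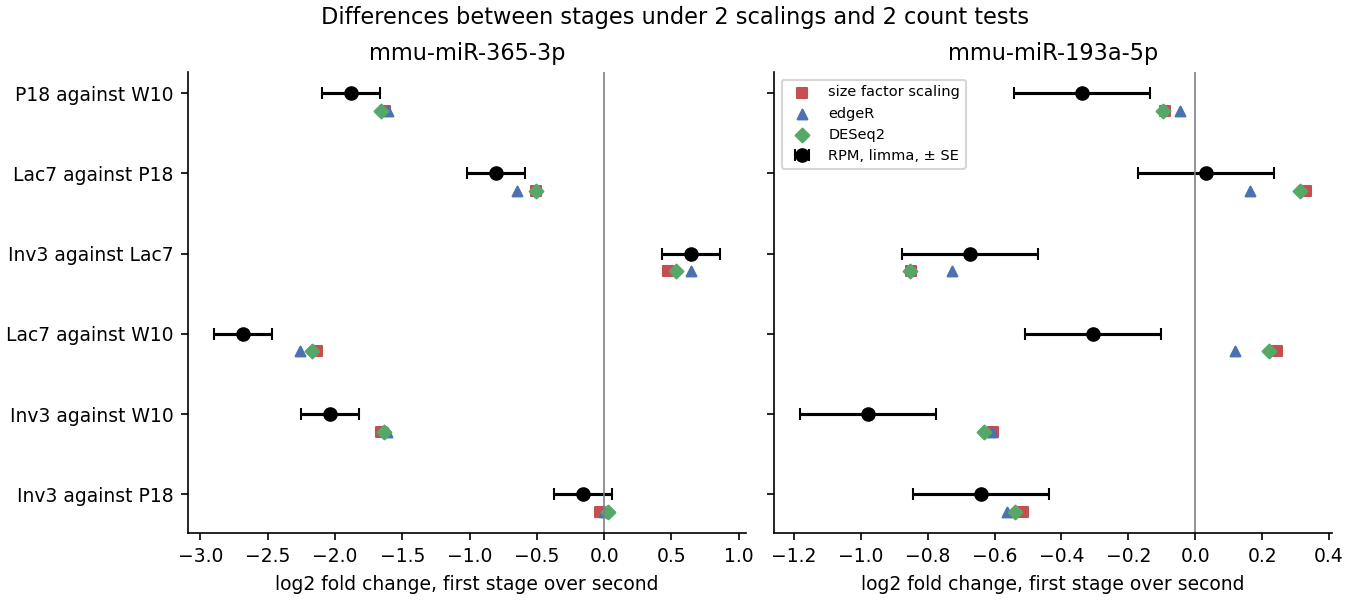
Log2 fold changes of miR-365-3p (left) and miR-193a-5p (right) for 6 pairs of stages, first stage over second, with black circles for limma on RPM with 1 SE and coloured symbols for size factor scaling, edgeR and DESeq2. The fall of miR-365-3p from W10 to P18, -1.88 on RPM, is on the same side of 0 under each, while miR-193a-5p between Lac7 and W10 lies at -0.31 on RPM and above 0 under the other 3.

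The 2 abundant members thus went opposite ways after weaning. The ratio of miR-365-3p to miR-193a-5p within a library, also chosen after the values were seen, was 6.54 ± 1.76 in W10 mice, 2.30 ± 0.888 in P18 mice, 1.22 ± 0.231 in Lac7 mice and 3.10 ± 0.587 in Inv3 mice (SD, n = 6). It ranged from 3.94 to 8.51 at W10 and from 0.986 to 1.55 at Lac7. On the log2 scale P18 differed from W10 by -1.54, Lac7 from P18 by -0.84 and Inv3 from Lac7 by 1.32. In each of these steps no mouse of one stage overlapped the other (exact permutation p = 0.0022 each, the smallest possible, adjusted p = 0.0037). The ratio at Inv3 remained below that at W10 by a log2 difference of -1.06 (exact permutation p = 0.0022, adjusted p = 0.0037). Against P18 it differed by 0.49 (exact permutation p = 0.074, adjusted p = 0.080). That difference passed without P18 mouse 2 (0.60, exact permutation test, adjusted p = 0.049) and without P18 mouse 6 (0.63, adjusted p = 0.042). These values were adjusted over the comparisons that involve the mouse left out.

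**Figure D3:**
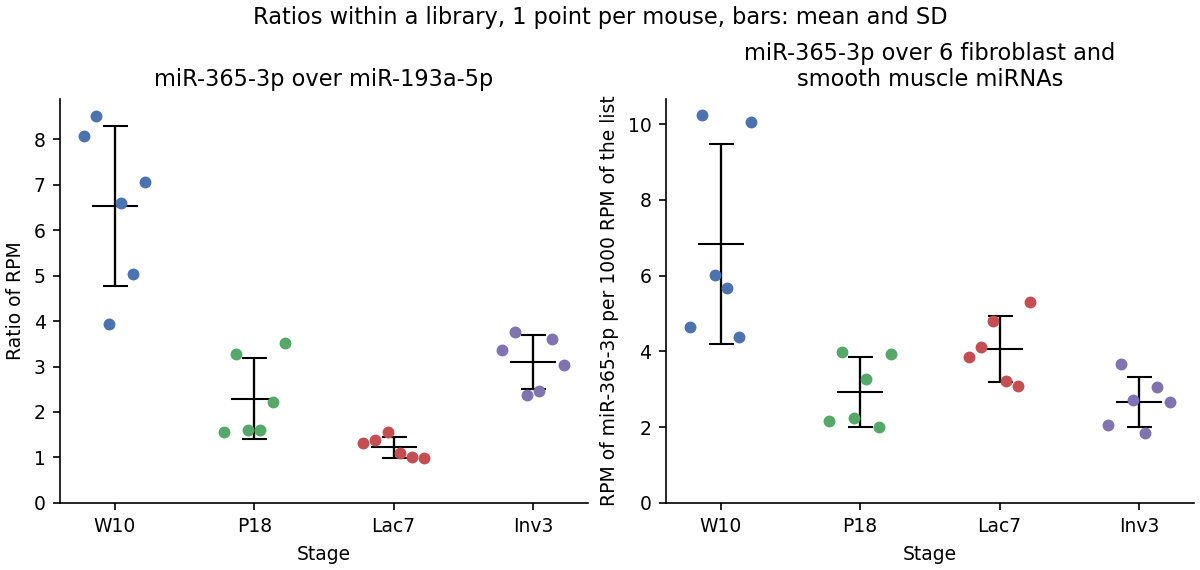
Ratio of miR-365-3p to miR-193a-5p (left) and RPM of miR-365-3p per 1000 RPM of 6 fibroblast and smooth muscle miRNAs (right), by stage on linear axes from 0, with 1 point per mouse and the mean and SD of 6 mice. On the left Lac7 is lowest, with a mean of 1.22, and on the right P18 and Inv3 are lowest, with means of 2.93 and 2.66.

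miR-193b-3p, the arm described in fat cell differentiation and as a repressor of the oestrogen receptor in breast cancer cells, was scarcely read. Its 44 reads came from 18 of the 24 libraries, with at most 9 in one. At W10 all 6 libraries held 1 to 9 reads, 27 in all, and the level ranged from 0.87 to 9.68 RPM with a median of 4.06 RPM (4.70 ± 3.46, SD, n = 6). At the other stages each library held at most 3 reads. Totals were 5 reads at P18 (0.912 ± 0.855 RPM), 9 at Lac7 (2.16 ± 1.28) and 3 at Inv3 (0.458 ± 0.759). Lac7 was the only one of these in which every library held a read.

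By rates of reads pooled over a stage, W10 exceeded P18 by a ratio of 5.21 (95% counting interval 1.98 to 17.3) and Inv3 by a ratio of 8.96 (2.76 to 46.2). Such intervals leave out the spread between mice. limma, which takes mice as replicates, called both differences (adjusted p = 0.0051 and 0.00071). Against Lac7 the ratio was 2.08 (0.952 to 5.04, adjusted p = 0.15), a difference called without W10 mouse 5 (adjusted p = 0.041) and with a pseudocount of 10 RPM (adjusted p = 0.047). limma also called Inv3 below Lac7 (adjusted p = 0.020), with all libraries at 3 reads or fewer and no fold given. That call did not pass with a pseudocount of 10 RPM (adjusted p = 0.11), without the filter (0.057), with edgeR or DESeq2 (0.067 each) or without Lac7 mouse 1, which held 3 of the 9 reads (0.058). The Lac7 and P18 stages differed with an adjusted p of 0.13.

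miR-193a-3p, which shares the seed of miR-193b-3p, had 13 reads in 8 of 24 libraries and never more than 2 in one, so that every library was within the limit that a count of 0 allows. W10 mice had 7 of the reads, P18 mice 2, Lac7 mice 3 and Inv3 mice 1. No comparison of stages passed (adjusted p from 0.11 to 0.89), and no fold is given. Both reads at P18 came from mouse 3, and without it P18 was called below W10 (adjusted p = 0.048).

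The 5p arm of Mir193b, which is no member, had reads in all 24 libraries, 1 to 10 each, and ranged from 4.01 to 14.0 RPM at Lac7 with a median of 6.74 RPM (7.81 ± 3.52, SD, n = 6). At P18 it was 2.43 ± 1.14 RPM and at Inv3 2.39 ± 1.11 RPM, and at W10 4.63 ± 2.74 RPM. The arm rose from P18 to Lac7 by 1.34 on the log2 scale (SE 0.36, adjusted p = 0.0033), while miR-365-3p, encoded 4238 bases further on and on chromosome 11 as well, fell. It fell by 1.36 from Lac7 to Inv3 (SE 0.36, adjusted p = 0.0032). From W10 to P18 the change was -0.60 (SE 0.36, adjusted p = 0.19).

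**Figure D4:**
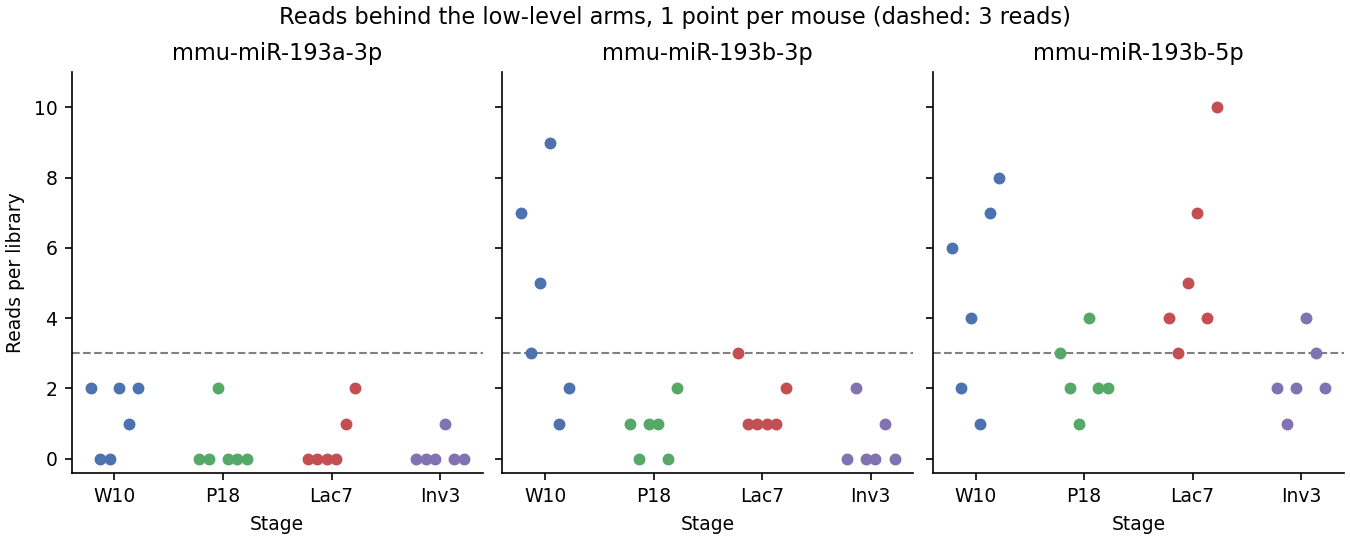
Whole reads per library of miR-193a-3p, miR-193b-3p and miR-193b-5p, by stage, with 1 point per mouse and a dashed line at 3 reads, the limit that a count of 0 allows. miR-193a-3p stays at 2 reads or fewer, miR-193b-3p passes 3 reads only at W10, with up to 9, and miR-193b-5p reaches 10 at Lac7.

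No pair of members passed the test for varying together between mice of a stage. After the stage means were subtracted, miR-193a-5p and miR-365-3p had the highest correlation over the 24 mice (Pearson r = 0.43, permutation p = 0.057, adjusted p = 0.34 over 6 pairs of members). Spearman's rho was 0.44 (permutation p = 0.0499, adjusted p = 0.30), and r was 0.50 without the 2 mice farthest from the median. Within stages r was 0.49 (W10), -0.14 (6 P18 mice), 0.57 (6 Lac7 mice) and 0.84 (6 Inv3 mice). The other 5 pairs had r from -0.26 to 0.25 and no adjusted p under 0.47.

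The miRNAs with the pattern most like that of miR-365-3p were miR-184-3p, miR-338-3p, miR-708-3p, miR-130a-3p, a repressor of the fat cell regulator PPARG, and miR-196b-5p, which lies in a Hox gene cluster. Over 24 libraries their log2 levels had Pearson r of 0.95, 0.94, 0.94, 0.94 and 0.92 with it, among the 157 miRNAs whose mean reached 100 RPM. Much of this is the shared difference between stages. After subtraction of the stage means r was 0.54, 0.66, 0.52, 0.59 and 0.30. miR-365-3p at Lac7 was 15.1% of its W10 mean. miR-184-3p fell furthest of the 5, from 509 ± 185 RPM at W10 to 17.6 ± 5.43 RPM at Lac7, or 3.47% of its W10 mean. miR-130a-3p fell least, from 222 ± 24.7 to 88.4 ± 11.04 RPM, or 39.8%.

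**Figure D5:**
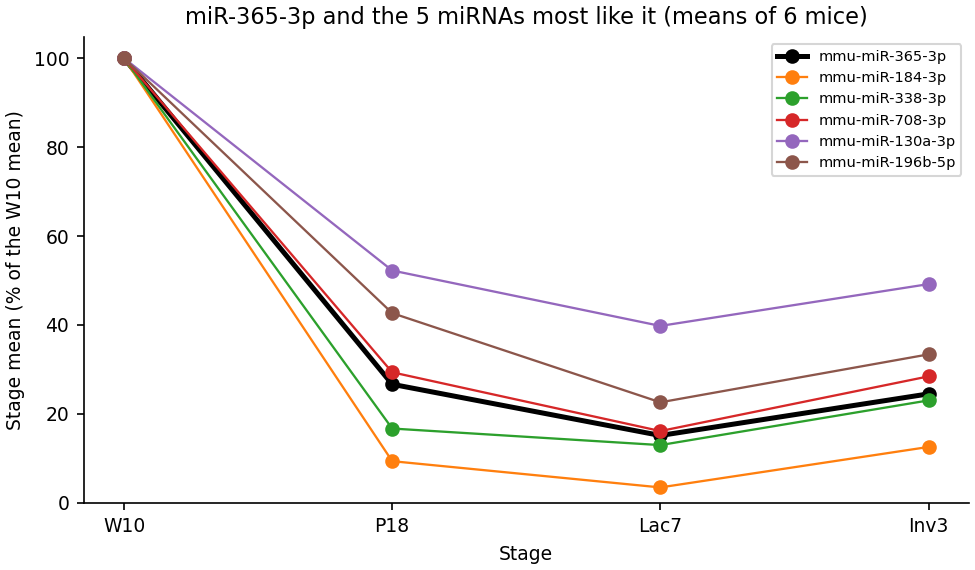
Stage means of miR-365-3p (thick black line) and the 5 miRNAs most like it, each as a percentage of its own W10 mean, on a linear axis from 0, with 1 point per mean of 6 mice. All 6 are lowest at Lac7, from 3.47% for miR-184-3p to 39.8% for miR-130a-3p.

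For miR-193a-5p the nearest patterns were those of let-7b-5p (r = 0.78), miR-26a-5p (0.72), miR-26b-5p (0.63), miR-361-5p (0.62) and miR-203-3p (0.58). let-7b-5p was 12656 ± 2870 RPM at W10 and 10174 ± 1563 RPM at Inv3, and kept r = 0.79 after subtraction of the stage means. For miR-26a-5p, miR-26b-5p, miR-361-5p and miR-203-3p r was then 0.46, 0.078, 0.49 and 0.067. miR-193b-3p was nearest to miR-378a-3p (0.79), miR-26a-5p (0.78), and the muscle miRNAs miR-133a-5p (0.72), miR-133a-3p (0.69) and miR-1a-3p (0.68). With the stage means subtracted these values were 0.47, 0.41, 0.43, 0.36 and 0.35. These rest on few reads, and the skeletal muscle sums given above were also highest at W10. For miR-193a-3p, at 2 reads or fewer, r was at most 0.44, with miR-29c-3p, and the others were miR-378a-3p, miR-26a-5p, miR-30e-5p and miR-669o-3p.

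A list of 34 other miRNAs that have been described as promoting or restraining fat cell formation had 33 that were tested. Since it holds both kinds, it has no single direction. The counts called over all tested miRNAs are given above. From W10 to P18, 10 rose and 11 fell, with a median log2 fold change of -0.11 against -0.32 over all tested miRNAs. With size factors 14 rose and 10 fell. From P18 to Lac7, 9 rose and 11 fell (13 and 6 with size factors), with a median of -0.17 against -0.34. From Lac7 to Inv3, 12 rose and 12 fell (8 and 14 with size factors), with a median of -0.20 against 0.28.

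The most abundant of that list were miR-143-3p and miR-103-3p, both linked to fat cell differentiation or insulin response, and miR-27b-3p, a repressor of PPARG. miR-143-3p was 92349 ± 6872 RPM in W10 mice, 145529 ± 7070 in P18 mice, 138521 ± 7231 in Lac7 mice and 246220 ± 29288 in Inv3 mice. It rose from W10 to P18 by 0.66 on the log2 scale (SE 0.09, adjusted p = 5.9e-07) and from Lac7 to Inv3 by 0.82 (SE 0.09, adjusted p = 1.6e-08), and differed by -0.07 from P18 to Lac7 (adjusted p = 0.53), a value that turned positive with size factors and edgeR and was called higher with DESeq2 (adjusted p = 0.046). Unlike miR-365-3p, it was lowest in adult glands.

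miR-27b-3p rose from 13694 ± 990 RPM at W10 to 26997 ± 1762 at P18 (log2 fold change 0.98, SE 0.11, adjusted p = 7.8e-08) and to 37255 ± 2075 at Lac7 (0.47, SE 0.11, adjusted p = 0.0011). It fell to 25539 ± 5352 RPM at Inv3 (-0.57, SE 0.11, adjusted p = 0.00013). miR-103-3p was 34069 ± 4749 RPM at W10 and 36768 ± 2968 at P18 (0.12, SE 0.11, adjusted p = 0.39, called higher with size factors, edgeR and DESeq2). It rose to 53504 ± 5012 RPM at Lac7 (0.54, SE 0.11, adjusted p = 0.00012) and fell to 25849 ± 3430 RPM at Inv3 (-1.06, SE 0.11, adjusted p = 5.3e-09). Both had their highest mean at Lac7, the stage at which miR-365-3p was lowest.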

How the data were processed

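Small RNA of 24 mice was prepared with a QIAseq miRNA kit and sequenced on an Illumina instrument. Reads were assigned by the authors with QuickMIRSeq and miRBase, and the submitters' processing notes name Trimmomatic 0.36, FastQC, MultiQC, cutadapt and GRCm38. Whether molecular identifiers were counted is not given in the sources used here. The deposited values are RPM, scaled by the authors so that each library sums to 1000000 over 1009 miRNAs. Each library's values were whole multiples of one step, which gave whole reads for 100% of values (within 0.1 read). In W10 mouse 7 this step lies near 1 RPM. The authors used DESeq2 on their counts.

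Groups were taken from the labels. The main test was limma 3.58.1 on log2(RPM + 1), with a trend in the variance, in 1 fit over 24 libraries and 544 miRNAs with a stage mean of at least 1 RPM. Adjusted p-values are Benjamini-Hochberg values within a comparison. The code was tested on simulated data. Ratios were compared by exact permutation over 924 splits, and correlations by 100000 permutations within stages. The alternatives were pseudocounts of 0.1 and 10 RPM, no filter and a filter of 100 RPM, DESeq2 size factors, a fit to 12 libraries, a replicate block, edgeR 4.0.16 and DESeq2 1.42.0 on the recovered reads, and leaving out each library. The 2 ratios of the abundant arms and the alternatives for miR-193b-5p, miR-143-3p, miR-103-3p and miR-27b-3p were added after seeing the data. Named are the members, other arms of their precursors, the 5 miRNAs (mean of at least 100 RPM) of highest Pearson r with each member, the 3 most abundant of the fat cell list, and miRNAs sharing a seed. The members and lists were chosen with earlier results of these data known. Sequences and positions are RefSeq's and the annotation is GENCODE's, both on GRCm38.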

Additional observations from a re-analysis of the deposited data

Results flagged for a closer look

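Among 16 sets of 6 mice, 1 for each member and stage, 2 held a mouse far from the others by Dixon's criterion. Both were miR-193a-3p, with 2.13 RPM (2 reads) in P18 mouse 3 and 1.02 RPM (1 read) in Inv3 mouse 4, while the other 5 mice of each stage had no read. With the other 5 mice at 0 any single read meets the criterion, so the rate of about 1 in 20 by which chance gives such mice in continuous values does not apply.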

How the results depend on the processing

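The libraries' depth limits miR-193a-3p and miR-193b-3p, whose counts lie at or near the 3 reads that a count of 0 allows, and whose ratios follow the pseudocount. With size factors, miR-365-3p changed by -0.503 for Lac7 against P18 and 0.474 for Inv3 against Lac7, neither passing in limma, both in edgeR and DESeq2. The change of miR-193b-3p from Lac7 to Inv3 did not pass with a pseudocount of 10 RPM (-0.21), no filter (-1.17), edgeR (-1.92) or DESeq2 (-2.28). The causes were not tested. miR-193a-5p between Lac7 and W10 turned to 0.24 with size factors, 0.12 with edgeR and 0.22 with DESeq2, and miR-365-3p between Inv3 and P18 to 0.0258 with DESeq2. miR-143-3p from P18 to Lac7 turned to 0.23 with size factors, 0.0906 with edgeR and 0.23 with DESeq2. The log2 ratio of miR-365-3p to miR-193b-3p turned to 1.87 (Inv3 against W10) and 0.77 (P18 against W10) with a pseudocount of 0.1 RPM and to -0.0845 (Inv3 against P18) with 10 RPM. For Lac7 against P18 it ran from -2.62 to -0.90, and for Inv3 against Lac7 from 0.82 to 3.72, over the pseudocounts, with a denominator of 0 to 3 reads, so no size is given for it. Planned ratios that involve miR-193a-3p are not given, since at most 2 reads per library stand behind it. With a filter of 100 RPM only miR-365-3p of the 4 members was tested.

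Leaving out single libraries gave ranges that crossed 0 or the threshold for miR-193a-3p (-0.97 to -0.55 for P18 against W10, -0.0088 to 0.54 for Lac7 against P18 and -0.27 to 0.17 for Inv3 against P18) and miR-193a-5p (-0.052 to 0.15 for Lac7 against P18). For Inv3 against Lac7 they were -1.39 to -0.99 for miR-193b-3p and 0.49 to 0.77 for miR-365-3p, and the ratio of miR-365-3p to miR-193b-3p between Inv3 and W10 ran from -0.47 to 0.063.

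Mice of different stages shared only a number, and over 158 miRNAs same-numbered mice correlated at -0.046 on average, other pairs at 0.0038. With a replicate block the change of miR-365-3p from W10 to P18 was -1.78 (adjusted p = 5.5e-07), and no call on a member changed.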
